A study of Mus musculus with 24 samples.

Results

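The 10 genes described here mark mast cells and basophils and were followed in blood-forming progenitors of mice: the histamine-synthesising enzyme gene Hdc, the IgE receptor genes Fcer1a and Ms4a2, and the granule protease genes Cpa3, Tpsb2, Tpsab1, Cma1, Mcpt4, Mcpt8 and Prss34. They are 10 of the 55487 genes in the count table, taken by symbol, and all 10 had enough counts to be tested, among 23059 genes. The set was put together because Hdc and Cpa3 were high at birth and low at 28 days in these libraries, so differences between those ages are given as a description, without a test.

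The libraries came from LSK cells, a lineage-negative population that carries Sca-1 and KIT and holds the blood stem cells; the series' design text names the sorted cells as lineage-negative and KIT-positive, without Sca-1. There were 24 bulk RNA-seq libraries in 6 groups of 4, which the design text gives as biological replicates. The model carries human MLL::ENL (ME), a leukaemia fusion gene, under Tet-off control, and neither the promoter that drives the controlling transactivator nor the genotype of the wild-type controls beyond "WT" is given in the sources used here. Newborn (P0) liver gave the P0 WT libraries, from wild-type mice, and the P0 ME libraries, from mice whose ME was switched on before birth, at E10.5. Bone marrow at postnatal day 28 (P28) gave 4 groups: wild-type (P28 WT), ME switched on at E10.5 (P28 E10.5-induced), ME switched on at P0 (P28 P0-induced), and RLT Vav Txp, a name the labels do not expand, also with ME switched on at E10.5 (P28 RLT Vav Txp). Every P0 library is from liver and every P28 library from marrow, which means that age and tissue cannot be told apart. In bulk RNA, fewer cells of a type and less RNA per cell cannot be told apart either, and this holds for every difference below.

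Mast cells and basophils are granulocytes that store histamine and proteases in granules and release them when antigen cross-links IgE bound to a high-affinity receptor. Both descend from progenitors in the blood-forming tissues. Basophils mature in the marrow and circulate, while mast cell progenitors leave for the tissues, where KIT ligand keeps them alive. Mast cells stay KIT-positive when mature, so a gate on lineage-negative KIT-positive cells does not by itself remove them, whereas mature basophils have little or no KIT. Tryptases (Tpsb2, Tpsab1) and chymases (Cma1, Mcpt4) are products of mature connective tissue mast cells, Cpa3 is shared by mast cells, basophils and their progenitors, and Mcpt8 and Prss34 mark basophils in the mouse.

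The proteases of the set lie in clusters of related genes. On chromosome 14 of GRCm38 (GENCODE M21 gene models), Cma1 (55941451 to 55944675), Mcpt4 (56059629 to 56062313) and Mcpt8 (56082166 to 56085273) all lie on the minus strand, with 115 kb between the first pair and 19.9 kb between the second pair. On chromosome 17, Prss34 (25298394 to 25300165, plus strand) is 43.1 kb from Tpsab1 (25343245 to 25345562, minus strand), which is 20.7 kb from Tpsb2 (25366305 to 25369098, plus strand). Hdc (chromosome 2, 126593667 to 126619299), Fcer1a (chromosome 1, 173221284 to 173227214), Ms4a2 (chromosome 19, 11615523 to 11623719) and Cpa3 (chromosome 3, 20215620 to 20242181) stand alone, all on the minus strand. Exact stretches of at least 50 bases shared with transcripts of other genes were found in 0 bases of 9 members and in 58 bases (1.28%) of Hdc.

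Promoter windows of 250 bases before the annotated start were available for 8 of the 10 members from RefSeq (GRCm38.p6); Tpsb2 and Tpsab1 had none. The lines below show Cpa3 and Hdc, the genes whose age pattern defined the set, and the chromosome 14 neighbours Cma1, Mcpt4 and Mcpt8; Cma1 and Mcpt4 are mast cell proteases and Mcpt8 a basophil protease. Capitals mark GATA words, the recognition letters of the haematopoietic GATA factors (AGATAA with its variant AGATAG, or TGATAA with its variant TGATAG, on either strand), and TATA boxes, here the word TATAAA in both orientations; annotated exon bases were cut from the 3' end of the Mcpt4 and Mcpt8 windows, and the Hdc window lies inside a longer gene model but in none of its exons.
Cpa3 (chr3:20242182-20242431, minus strand): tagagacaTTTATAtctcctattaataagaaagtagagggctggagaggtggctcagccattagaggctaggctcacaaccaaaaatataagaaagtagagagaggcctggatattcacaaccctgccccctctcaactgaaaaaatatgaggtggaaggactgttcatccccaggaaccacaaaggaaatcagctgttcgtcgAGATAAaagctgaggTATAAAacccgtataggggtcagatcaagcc
Hdc (chr2:126618679-126618928, minus strand): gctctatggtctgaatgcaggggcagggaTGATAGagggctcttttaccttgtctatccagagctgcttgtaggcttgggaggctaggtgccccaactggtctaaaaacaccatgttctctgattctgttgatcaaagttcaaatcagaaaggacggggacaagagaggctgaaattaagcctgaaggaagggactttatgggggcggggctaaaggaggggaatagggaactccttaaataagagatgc
Cma1 (chr14:55944676-55944925, minus strand): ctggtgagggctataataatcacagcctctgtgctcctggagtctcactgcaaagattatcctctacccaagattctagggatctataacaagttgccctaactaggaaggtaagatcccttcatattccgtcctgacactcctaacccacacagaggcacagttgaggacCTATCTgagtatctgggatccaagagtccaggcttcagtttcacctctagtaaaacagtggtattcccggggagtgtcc
Mcpt4 (chr14:56062314-56062560, minus strand): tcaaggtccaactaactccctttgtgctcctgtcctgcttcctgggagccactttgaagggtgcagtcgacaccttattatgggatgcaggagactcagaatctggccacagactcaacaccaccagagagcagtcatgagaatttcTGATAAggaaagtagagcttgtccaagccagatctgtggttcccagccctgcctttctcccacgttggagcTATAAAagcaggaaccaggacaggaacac
Mcpt8 (chr14:56085274-56085447, minus strand): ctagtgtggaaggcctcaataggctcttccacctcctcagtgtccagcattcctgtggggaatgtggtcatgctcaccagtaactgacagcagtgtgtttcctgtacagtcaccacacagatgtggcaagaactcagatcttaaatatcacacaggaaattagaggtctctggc
GATA words were present in 7 of the 8 windows, all but that of Mcpt8, beside 26.5% of the 32851 windows of the same length in the table. In Cpa3 the GATA word AGATAA ended 41 bases before the start, 10 bases ahead of a TATA box that began 31 bases before it. TATAAA was found in the windows of Cpa3, Mcpt4 and Fcer1a, beside 12.4% of all windows. The E-box letters CANNTG, read by basic helix-loop-helix factors such as MITF, were found in 6 of the 8, all but Ms4a2 and Mcpt4, beside 66.2% of all windows. A match describes letters in a window, not a bound site.

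Values below are TMM-normalised CPM, counts scaled to library size, in which 1 CPM stands for 32.5 to 90.1 reads, with library totals from 31233688 to 89774511 counts. The gate genes were present in every group: Kit averaged 688 to 1066 CPM and the lowest single library had 169 CPM. The P0 libraries held RNA of other cell types as well. Summed neutrophil markers (8 genes) were 11192 to 37507 CPM in 6 of the 8 P0 libraries, and 890.1 and 832 CPM in the P0 WT and P0 ME libraries numbered 1. These 2 libraries also had the lowest P0 erythroid sums (464 and 236 CPM) and macrophage sums (116 and 112 CPM), and the highest stem cell sums of their groups (2232 and 2485 CPM). They stood apart from the other P0 libraries, and ratios of P0 means are given with and without P0 WT 1. The labels give no sequencing batch. RLT Vav Txp libraries carry codes in place of replicate numbers, 2 of them with the same leading digits, so their numbers 1 to 4 here follow accession order only.

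Hdc, whose enzyme makes histamine from histidine, was counted in all 24 libraries. It stood at 1185, 175, 451 and 99.01 CPM in P0 WT libraries 1 to 4 and at 29.6, 173, 281 and 182 CPM in the P0 ME libraries. At P28 it was 3.76 to 7.27 CPM in WT, 6.68 to 14.5 CPM in E10.5-induced and 5.46 to 11.3 CPM in P0-induced mice, and 13.4 to 40.8 CPM in the RLT Vav Txp group. Every P0 library but P0 ME 1 lay above every P28 library, and P0 ME 1 lay below 2 libraries of the RLT Vav Txp group. The P0 WT mean was 92.1 times the P28 WT mean, and 46.6 times without P0 WT library 1. In E10.5-induced ME the P0 mean was 16.8 times the P28 mean.

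Fcer1a codes for the chain of the receptor that binds IgE, and Ms4a2 for the signal-amplifying beta chain of the same receptor. Fcer1a was 44.9, 3.35, 3.23 and 6.88 CPM in P0 WT, against 0.340, 0.0338, 1.23 and 0 CPM in P0 ME. In P28 WT it had 15 counts in 1 library (0.232 CPM) and 0 in the other 3, and in E10.5-induced mice 2 counts in all. In the RLT Vav Txp group it was 9.60, 13.4, 3.72 and 17.6 CPM, above every other P28 library and within the range of P0 WT. Ms4a2 followed another course. It was 8.73, 2.64, 2.71 and 0.0167 CPM in P0 WT (a single count in library 4) and 0.387, 3.65, 7.67 and 0.790 CPM in P0 ME, so the P0 groups overlapped. At P28 it was 0 to 2.65 CPM in WT, 0.229 to 2.71 CPM in E10.5-induced and 0.803 to 2.68 CPM in P0-induced mice, and 6.94 to 10.6 CPM in the RLT Vav Txp group.

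Cpa3, the carboxypeptidase that mast cells store with histamine and heparin, was also counted in all 24 libraries. It was 2545, 224, 394 and 361 CPM in P0 WT against 9.08, 60.7, 186 and 12.3 CPM in P0 ME, with no overlap between those groups. At P28 it was 2.54 to 13.1 CPM in WT, 4.58 to 12.0 CPM in E10.5-induced, 8.60 to 18.0 CPM in P0-induced mice and 31.3 to 77.7 CPM in the RLT Vav Txp group. Its P0 WT mean was 90.5 times the P28 WT mean, and 33.5 times without P0 WT library 1. The P0 ME mean was 9.29 times that of E10.5-induced mice at P28, and those groups overlapped, since P0 ME library 1 (9.08 CPM) lay below the highest P28 library (12.0 CPM).

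The tryptases and chymases of mature connective tissue mast cells were abundant in P0 WT and near absent at P28. Tpsb2 reached 4887, 355, 886 and 663 CPM in P0 WT, which was 242945, 27326, 79764 and 39712 counts. In P0 ME it was 246 CPM in library 3 (14406 counts) and 2.74, 0.0338 and 0.296 CPM in libraries 1, 2 and 4. At P28 it had at most 3 counts in a library of WT mice, 0 counts in all 8 libraries of E10.5-induced and P0-induced mice, and 193 counts in 1 library of the RLT Vav Txp group, with 0 in the other 3. Tpsab1, the neighbouring tryptase, was 200.004, 22.3, 44.4 and 48.0 CPM in P0 WT, against 12.6 CPM in P0 ME library 3 with 0 counts in the other 3. It was at 0 in all P28 libraries except for a single count in P0-induced mice and 10 counts in RLT Vav Txp library 2, the library that also held the Tpsb2 counts.

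Cma1, a chymase gene, was 2017, 149, 356 and 358 CPM in P0 WT against 4.69, 0, 85.7 and 3.28 CPM in P0 ME. No library of P28 WT, E10.5-induced or P0-induced mice passed 0.168 CPM, and 2 of the 4 RLT Vav Txp libraries had 1.51 and 0.557 CPM. Mcpt4, the chymase 115 kb further along the chromosome, was lower, at 23.4, 3.22, 5.45 and 4.36 CPM in P0 WT. P0 ME library 3 again stood out, with 5.21 CPM of Mcpt4 beside 0.387, 0.0169 and 0 CPM in the others. At P28 it was found in 2 libraries, with 3 counts in E10.5-induced and 52 counts in RLT Vav Txp library 2. Because P28 WT was at 0 counts, the P0 WT means of Tpsab1 and Mcpt4 were at least 1209-fold and at least 140.2-fold higher than those of P28 WT, taking 3 counts per library as the floor. Without P0 WT library 1 these bounds were at least 587-fold and at least 66.8-fold.

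The basophil proteases were still found in P28 WT. Mcpt8 was 1.25, 14.3, 8.90 and 10.4 CPM in P0 WT against 0.835, 8.78, 7.62 and 5.75 CPM in P0 ME, and the lowest library of each group was the one numbered 1. In P28 WT it was 4.33, 8.50, 0.0749 and 14.2 CPM, across the P0 range. It was 1.23 to 2.98 CPM in E10.5-induced and 0.683 to 4.62 CPM in P0-induced mice, and 30.7, 43.4, 18.5 and 44.8 CPM in the RLT Vav Txp group, above all 20 other libraries. For Prss34 the P0 WT libraries held 55.5, 17.7, 11.3 and 15.6 CPM, the P0 ME libraries 0.402, 15.4, 20.7 and 3.92 CPM, and those of P28 WT 6.63, 5.36, 0 and 11.8 CPM. In E10.5-induced mice 3 of the 4 libraries had 0 counts of Prss34 and the fourth had 14 counts (0.200 CPM). In P0-induced mice it split into 10.4 and 9.58 CPM in libraries 1 and 2 and 0.156 and 0.281 CPM in libraries 3 and 4, and in the RLT Vav Txp group it was 39.5, 29.8, 9.87 and 10.3 CPM.

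**Figure D1:**
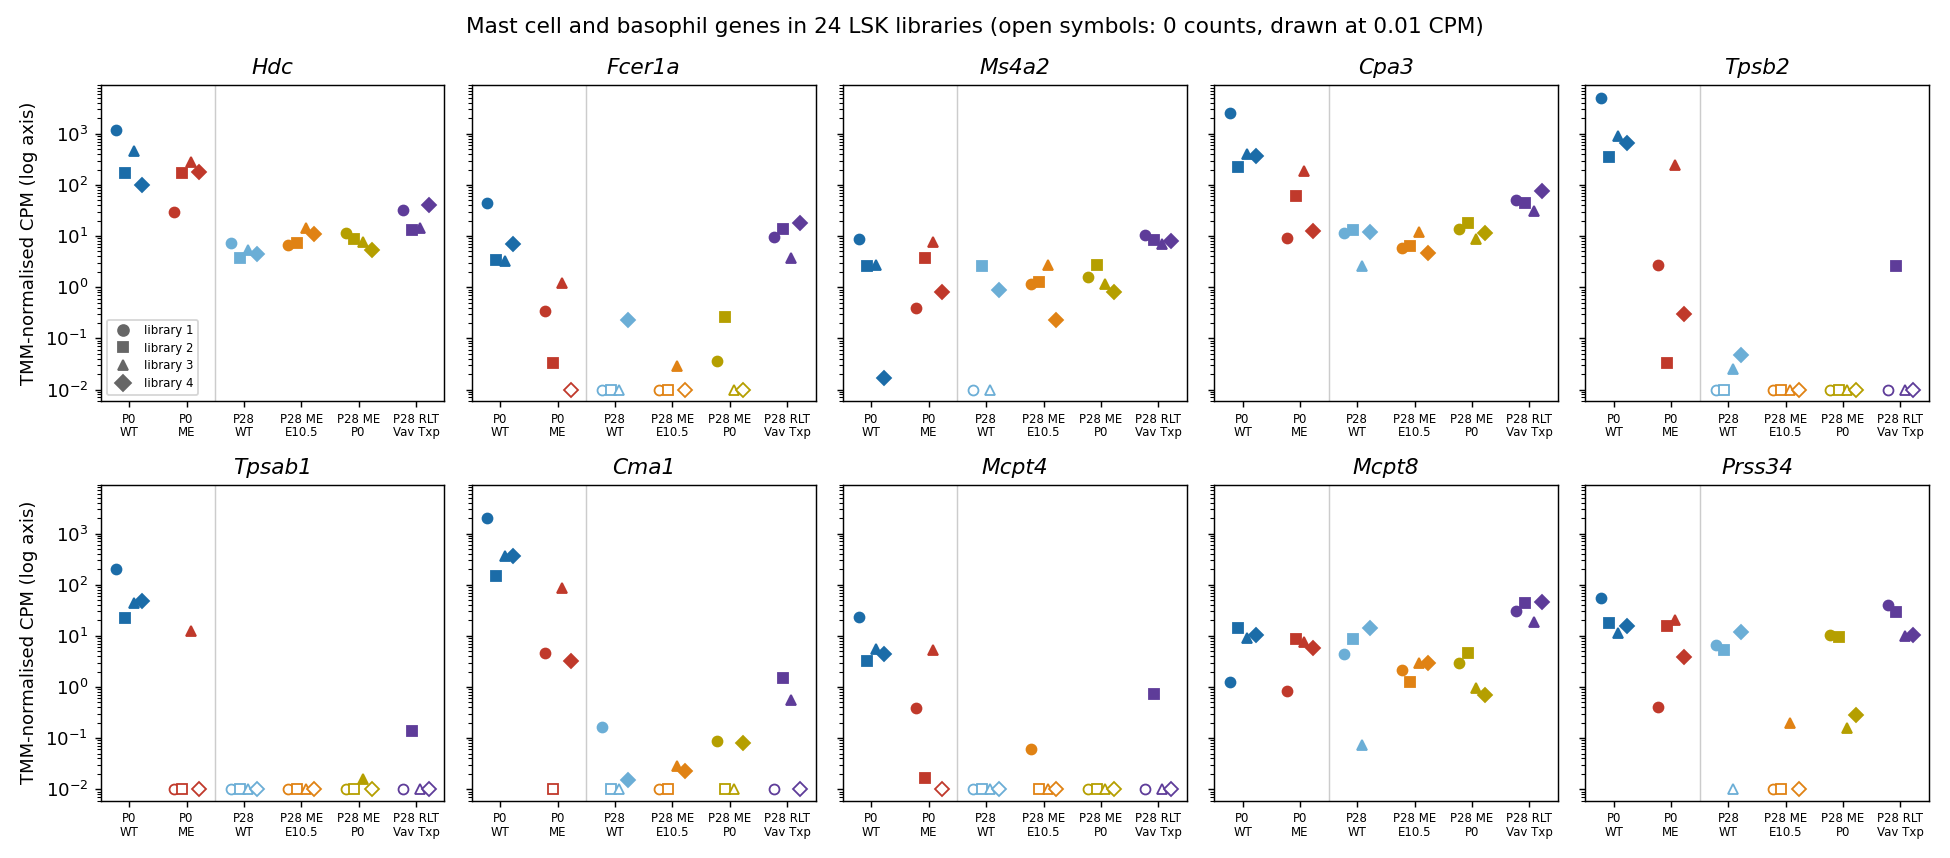
Each panel plots 1 gene, with TMM-normalised CPM on a log axis for the 4 libraries of each of 6 groups; symbol shapes mark the library number, and open symbols at the bottom are libraries with 0 counts. Tpsb2, Tpsab1, Cma1 and Mcpt4 are high in the 4 P0 WT libraries and at or near 0 in most P28 libraries, while Mcpt8 and Prss34 reach the P0 range again at P28 and Fcer1a returns in the RLT Vav Txp group.

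Between P0 WT and P28 WT, 7 of the 10 members did not overlap and were lower at P28: Hdc, Fcer1a, Cpa3, Tpsb2, Tpsab1, Cma1 and Mcpt4. Over all genes tested, 4.38% did so. The members were chosen on this contrast, so the count is a description. Ms4a2, Mcpt8 and Prss34 overlapped, with P0 WT means 4.01, 1.29 and 4.21 times those of P28 WT, and 2.03, 1.66 and 2.501 times without P0 WT library 1. In ME induced at E10.5, Hdc, Tpsb2 and Prss34 did not overlap between P0 and P28 and were lower at P28, beside 11% of all genes tested.

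P0 WT library 1 was the highest of its group for 9 of the 10 members and the lowest for Mcpt8. P0 ME library 3 was the highest of its group for 9 members. These are different libraries by their other markers: P0 WT 1 was low in neutrophil, erythroid and macrophage transcripts, and P0 ME 3 was not. Summed over the 4 mast cell proteases, P0 WT ran from 529.5 to 7128 CPM with a median of 1183 CPM, and P0 ME from 0.0507 to 349.6 CPM with a median of 5.69 CPM. The 2 basophil proteases summed to 20.2 to 56.7 CPM in P0 WT against 1.24 to 28.4 CPM in P0 ME. The highest of these sums, in P0 WT 1, was 55.5 CPM of Prss34 and 1.25 CPM of Mcpt8. Over the 8 P0 libraries the Pearson correlation of log2 CPM of Prss34 was 0.44 with Mcpt8 and 0.86 with Cpa3. Over the 16 P28 libraries these values were 0.79 and 0.83. Both sets of libraries pool groups that differ in mean level, so these correlations also carry differences between groups. At P28 the mast cell sum was at most 0.168 CPM in WT and 5.03 CPM in the RLT Vav Txp group, while the basophil sum of that group ran from 28.3 to 73.2 CPM.

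**Figure D2:**
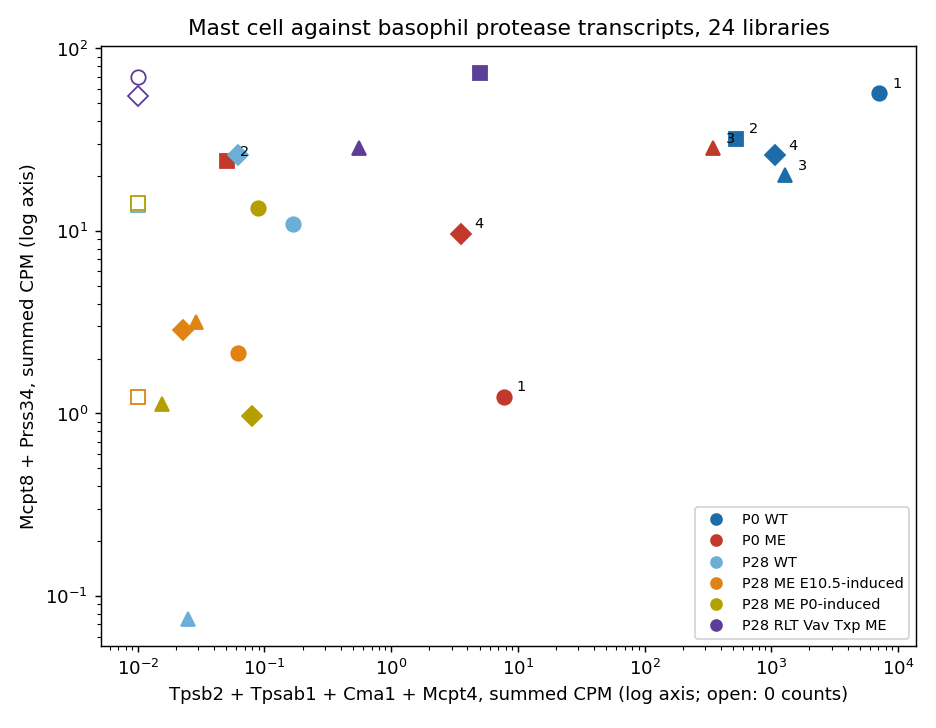
Each symbol is 1 of 24 libraries, with the summed CPM of Tpsb2, Tpsab1, Cma1 and Mcpt4 across and that of Mcpt8 and Prss34 upward, both on log axes; colours mark groups, shapes mark library numbers, P0 libraries carry their number, and open symbols had 0 counts on the horizontal axis. The 4 P0 WT libraries lie at the right from 529.5 CPM, and the RLT Vav Txp libraries lie from 28.3 to 73.2 CPM upward with at most 5.03 CPM of mast cell proteases.

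Levels of different genes were compared per kilobase of exon. In P0 WT the order by mean CPM per kb was Tpsb2 (1065), Cma1 (661) and Cpa3 (581), then Hdc (74.7) and Tpsab1 (37.6), and for the first 3 the SD over libraries was larger than the mean. In the RLT Vav Txp group Mcpt8 and Cpa3 led (34.4 and 33.6 CPM per kb) and Tpsb2 was at 0.417 CPM per kb. Within the chromosome 17 cluster the order differed between P0 WT and most P28 WT libraries. Tpsb2 exceeded Prss34 in all 4 P0 WT libraries, and Prss34 exceeded Tpsb2 in 3 of 4 P28 WT libraries and in all 4 RLT Vav Txp libraries. Prss34 also led in all 4 P0-induced libraries and in 1 E10.5-induced library, with both genes at 0 in the other 3. In P0 ME each of the pair led in 2 libraries. On chromosome 14, Cma1 exceeded Mcpt8 in all 4 P0 WT libraries and Mcpt8 exceeded Cma1 in all 16 P28 libraries. Here too the P0 ME libraries were split, with each gene ahead in 2.

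**Figure D3:**
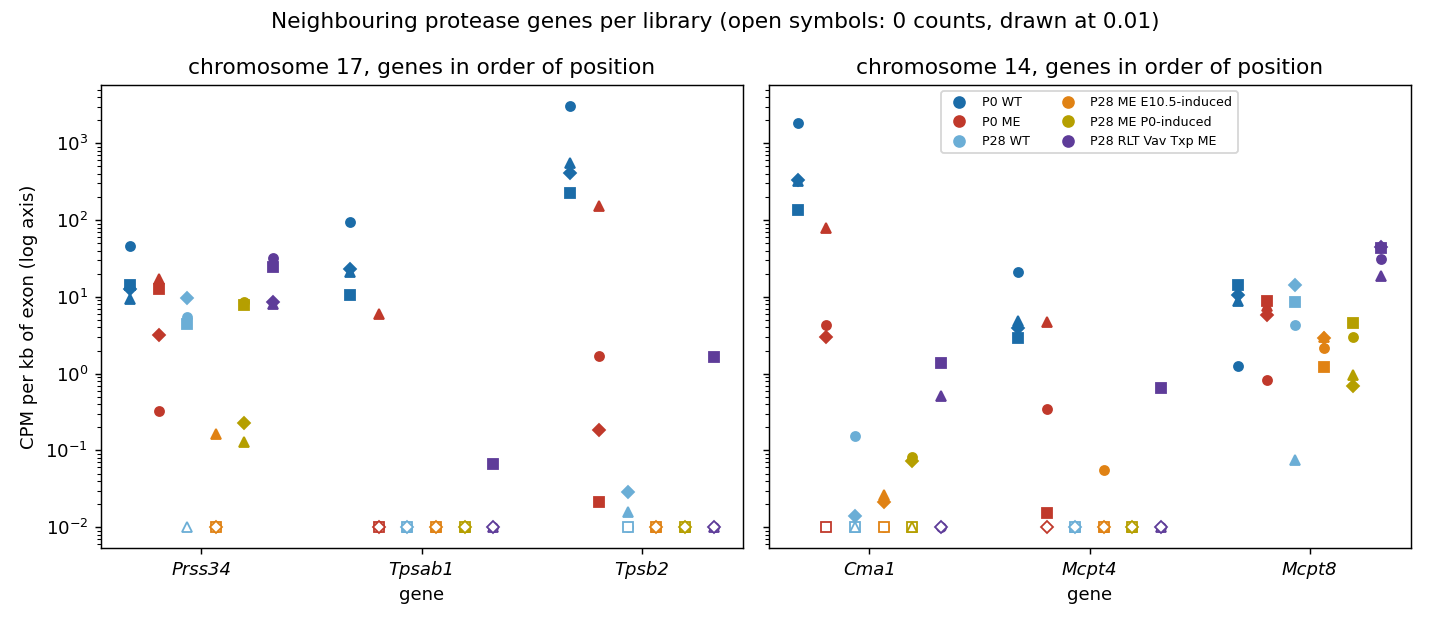
Libraries are plotted as CPM per kb of exon (log axis) for 3 protease genes of chromosome 17 and 3 of chromosome 14 in their order along the chromosome; colours mark the 6 groups, shapes the library numbers, and open symbols 0 counts. Tpsb2 and Cma1 lead in P0 WT (means 1065 and 661 CPM per kb), and in the RLT Vav Txp group Prss34 and Mcpt8, at the other ends of the clusters, are found in all 4 libraries while the other 4 genes are at 0 in at least 2.

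The comparison of ME with WT at P0 asks what embryonic induction of the fusion gene does to newborn progenitors. The members were chosen on the levels at P0 and P28, so the P0 libraries entered that choice. Cpa3, Fcer1a, Tpsb2, Tpsab1 and Cma1 were lower in every P0 ME library than in every P0 WT library, beside 1.56% of all genes tested. None of the 10 members passed the test, a Benjamini-Hochberg adjusted p under 0.05 in the edgeR quasi-likelihood fit of all 24 libraries, beside 0.642% of all genes called and 0.278% called lower. At an unadjusted p under 0.05 there were 6 members, beside 3251 of the 23059 genes tested. DESeq2 called 1 (Cpa3), beside 3.56% of genes with an adjusted p, and limma voom 0, beside 0.0781% of all genes. With the replicate number as a block, edgeR called 1 (Cma1, adjusted p = 0.0432), beside 0.778% of all genes. All 10 fitted log2 fold changes were negative, with a median of -3.21 beside -0.01 over all genes tested, and a median of -2.69 over the 9 members with a reported fit. Tpsab1 and Mcpt4 had enough counts to be tested only through the P0 WT libraries, so their lower values in P0 ME were favoured in advance. Both are among the 10, and Tpsab1 is also among the members without overlap and those at an unadjusted p under 0.05. These counts and medians are therefore a description.

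The mean of Cpa3 was 881 ± 1112 CPM in P0 WT against 67.0 ± 82.6 CPM in P0 ME (SD, n = 4), and its log2 fold change was -3.72 (edgeR SE 0.92, adjusted p = 0.0740). Fcer1a averaged 14.6 ± 20.3 and 0.401 ± 0.573 CPM, and its log2 fold change was -5.16 (edgeR SE 1.38, adjusted p = 0.0887). Cma1 averaged 720.0 ± 870.3 and 23.4 ± 41.6 CPM, and its log2 fold change was -4.94 (edgeR SE 1.44, adjusted p = 0.126). For these genes the difference in level was large and so was the spread between libraries of a group. Tpsb2 had a log2 fold change of -4.77 (SE 2.12, adjusted p = 0.336) and Mcpt4 of -2.69 (SE 1.73, adjusted p = 0.511). Hdc had one of -1.52 (SE 0.65, adjusted p = 0.295) and Prss34 of -1.30 (SE 1.35, adjusted p = 0.719). The values nearest to 0 were those of Mcpt8, -0.60 (SE 0.88, adjusted p = 0.812), and Ms4a2, -0.17 (SE 1.21, adjusted p = 0.972). Tpsab1, found in a single P0 ME library, has no reported fit, and its P0 WT mean was 24.9 times its P0 ME mean, 12.1 times without P0 WT 1, and without P0 ME 3 its P0 ME libraries are all at 0.

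The call for this comparison turned on P0 ME library 3. Without it, Cpa3, Tpsab1 and Cma1 were called lower, beside 0.432% of all genes called in either direction. The same 3 were called without P0 WT library 1 and P0 ME library 3 together, beside 1.05%. P0 ME 3 was the highest P0 ME library for 9 of the 10 members, these 3 among them. Leaving it out therefore favoured lower values in P0 ME in advance, and these calls are a description. For Tpsab1 that direction was also favoured by the filter on counts, as given above. Leaving out any other single library of either group called 0 members, and so did leaving out both P0 libraries numbered 1. The ratio of P0 WT to P0 ME means for Cpa3 was 13.2 with all libraries, 4.87 without P0 WT 1, 32.2 without P0 ME 3 and 3.78 without both libraries numbered 1. For Cma1 it was 30.7, 12.3, 271 and 9.70 in the same order, and for Hdc it was 2.87, 1.45, 3.72 and 1.14. For Fcer1a it was 36.4, 11.2, 117 and 10.7. Ms4a2 changed direction with the libraries, from a log2 fold change of -0.17 to 0.75 without P0 WT 1. The neutrophil, eosinophil and hepatocyte sums also differed between P0 libraries (eosinophil 4.59 to 1063 CPM in P0 WT against 174 to 2671 CPM in P0 ME, hepatocyte 56.0 to 123 and 26.0 to 213 CPM), and their part in these differences was not tested.

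At P28 the comparison of E10.5-induced ME with WT called 1 member, Prss34, the basophil protease, which was lower in the mice with ME. Its mean was 5.93 ± 4.83 CPM in P28 WT and 0.050 ± 0.10 CPM in E10.5-induced mice (SD, n = 4), and its log2 fold change was -6.67 (edgeR SE 1.86, adjusted p = 0.0246). The groups overlapped, because P28 WT library 3 also had 0 counts. A share of 12.3% of all genes was called in this comparison and 4.44% were called lower; a single call among 10 members is too few to set against these shares. The call was lost without filtering on low counts, with limma voom and with a replicate block (edgeR adjusted p = 0.0716). It was also lost in 5 of 8 fits that left out a library (without P28 WT 1 or 2, or E10.5-induced 1, 2 or 4). Over all 8 fits the edgeR adjusted p ran from 0.0170 to 0.0816. Mcpt8, its basophil partner, had a log2 fold change of -1.55 (SE 0.90, adjusted p = 0.286) with 2.31 ± 0.813 CPM against 6.77 ± 6.02 CPM. Hdc (0.94, SE 0.66, adjusted p = 0.392), Ms4a2 (0.63, SE 1.24, adjusted p = 0.796) and Cpa3 (-0.42, SE 0.84, adjusted p = 0.801) did not pass, and the other 5 members were at or near the floor.

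In mice with ME induced at P0, 0 of 10 members were called against P28 WT, beside 1.57% of all genes. At an unadjusted p under 0.05 there were 0, beside 4648 of the 23059 genes tested. DESeq2 called 0, beside 12.5% of genes with an adjusted p, and limma voom 0, beside 21.7% of all genes. Mcpt8 had the same fitted difference as in the E10.5-induced mice, -1.55 (SE 0.90, adjusted p = 0.350), and Prss34 one of -0.21 (SE 1.34, adjusted p = 0.954). Both induction times are set against the same P28 WT libraries. Set directly against each other, the P0-induced and E10.5-induced groups differed in 0 members by edgeR, beside 0.0477% of all genes. By limma voom 0 members were called, beside 10.1% of all genes. A single member, Prss34, had an unadjusted p under 0.05, beside 998 of the 23059 genes tested. Prss34 was called by DESeq2 (higher in P0-induced mice), beside 0.401% of genes with an adjusted p. Its 2 P0-induced libraries near 10 CPM and 2 near 0.2 CPM did not separate from the E10.5-induced libraries, whose highest was 0.200 CPM.

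The difference between the ME effects at P28 and at P0, with induction at E10.5 in both, was tested as an interaction, and 0 of 10 members were called, beside 0.72% of all genes. The members were chosen on the levels at P0 and P28, which enter this contrast, so its values are a description. This holds most for Hdc and Cpa3, whose age pattern defined the set. There were 3 members at an unadjusted p under 0.05, namely Cpa3, Hdc and Prss34, beside 3815 of the 23059 genes tested. Prss34 had the opposite sign to Cpa3 and Hdc, and its fit is not reported because of its low counts in E10.5-induced mice. By limma voom 0 were called, beside 2.82% of all genes. DESeq2 called Tpsb2, whose P28 libraries are at the floor, beside 3.47% of genes with an adjusted p. Cpa3 had an interaction of 3.29 on the log2 scale (edgeR SE 1.21, adjusted p = 0.181), which sets its difference of -3.72 at P0 against -0.42 at P28. For Hdc it was 2.46 (SE 0.93, edgeR adjusted p = 0.192).

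**Figure D4:**
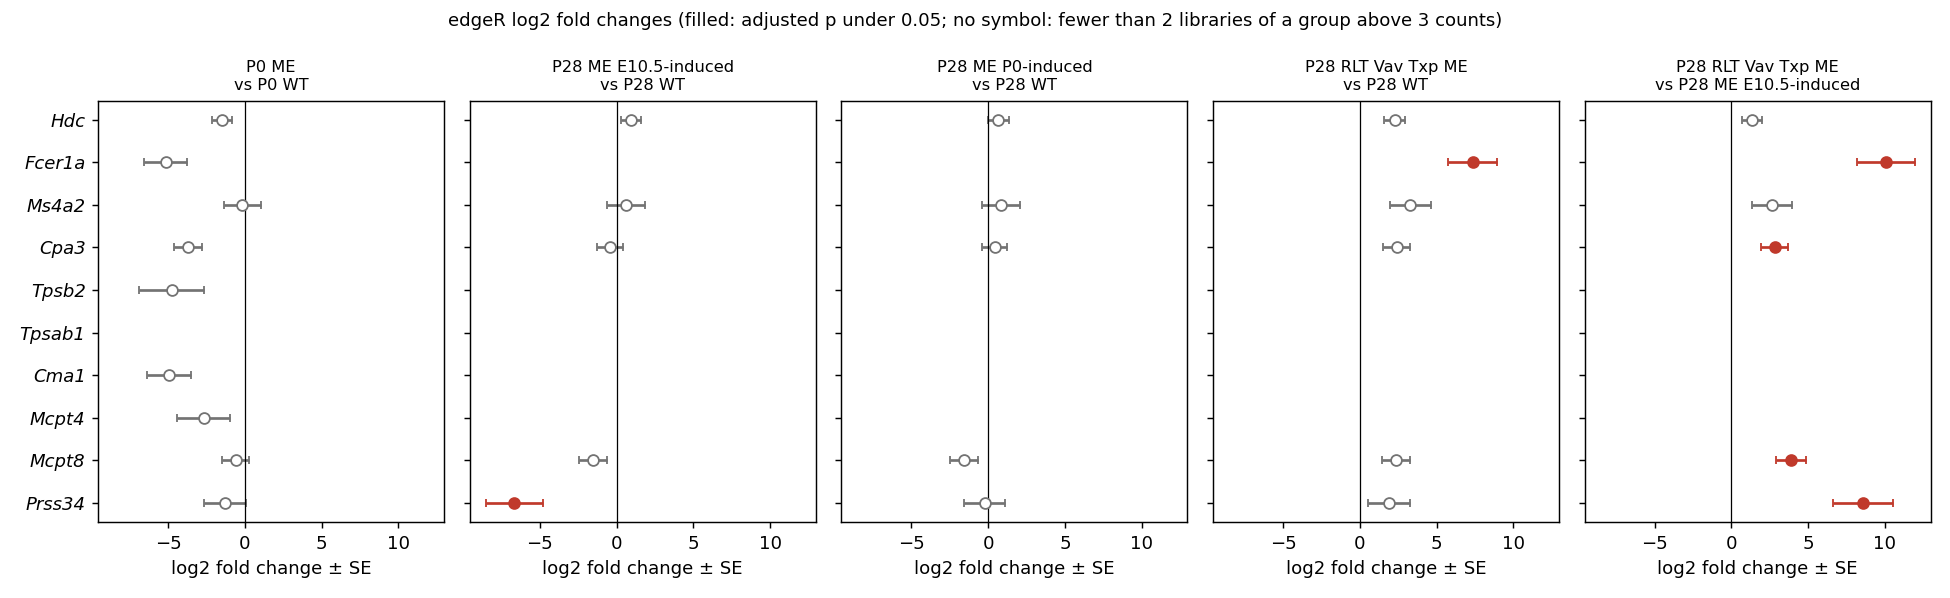
Each panel gives 1 comparison, with the edgeR log2 fold change of each member as a point and its SE as a bar on a shared linear axis; filled points have an adjusted p under 0.05, and members found above 3 counts in fewer than 2 libraries of a group have no point unless called. All points at P0 lie below 0 and all points of the RLT Vav Txp comparisons lie above 0, with 1 and 4 of them called.

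Of the 4 P28 groups, RLT Vav Txp had the highest mean of each of the 10 members. Against P28 WT, Fcer1a rose from 0.0580 ± 0.116 to 11.1 ± 5.91 CPM (SD, n = 4), a fitted log2 difference of 7.36 (edgeR SE 1.58, adjusted p = 0.00718). It was the 1 member called, beside 2.64% of all genes called higher and 4.12% called in either direction. Hdc, Fcer1a, Ms4a2, Cpa3 and Mcpt8 were higher in all 4 RLT Vav Txp libraries than in all 4 P28 WT libraries, beside 7.02% of all genes tested. All 10 fitted values were positive, with a median of 2.37 over the 6 members with a reported fit beside 0.01 over all genes. Of the members, 6 had an unadjusted p under 0.05, beside 3518 of the 23059 genes tested. Among those 6 members with an unadjusted p under 0.05, Mcpt4 has no reported fit and rests on 52 counts in 1 RLT Vav Txp library. Tpsb2, Tpsab1, Cma1 and Mcpt4 were at or near 0 in P28 WT, so their positive signs rest on few RLT Vav Txp libraries, as given below. For Hdc the log2 fold change was 2.28 (SE 0.68, adjusted p = 0.0679), Cpa3 of 2.39 (SE 0.88, adjusted p = 0.161) and Mcpt8 of 2.34 (SE 0.92, adjusted p = 0.192). Ms4a2 had 3.29 (SE 1.33, adjusted p = 0.209) and Prss34 had 1.92 (SE 1.38, adjusted p = 0.599), which did not pass either. The Fcer1a call held in all 8 fits that left out a library, with an adjusted p of at most 0.0352.

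Against E10.5-induced ME, the group with the same induction time, 4 of 10 members rose in the RLT Vav Txp group, beside 8.5% of all genes called higher and 17.9% called. They were Fcer1a (log2 fold change 10.07, SE 1.88, edgeR adjusted p = 0.00121), Prss34 (8.59, SE 1.97, adjusted p = 0.00642), Mcpt8 (3.89, SE 0.99, adjusted p = 0.010) and Cpa3 (2.82, SE 0.89, adjusted p = 0.0353). Fcer1a had 2773 counts against 2 counts, a ratio of 1375 with a 95% exact interval of 380.2 to 11359 for counting error only. Mcpt8 went from 2.31 ± 0.813 to 34.3 ± 12.3 CPM and Prss34 from 0.050 ± 0.10 to 22.4 ± 14.7 CPM (SD, n = 4). These 3 calls held in all 8 fits that left out a library and in all 7 other settings. The call of Cpa3 held only without RLT Vav Txp library 1, 1 of the 8, with an edgeR adjusted p from 0.0429 to 0.0999 over all 8. It was also lost without filtering on low counts (adjusted p = 0.0625). Ms4a2 did not overlap between the groups, at 1.34 ± 1.03 and 8.50 ± 1.55 CPM, and did not pass (log2 fold change 2.66, SE 1.29, adjusted p = 0.164). Including it, 5 members did not overlap and were higher, beside 11.6% of all genes tested. For Hdc the log2 fold change was 1.35 (SE 0.65, adjusted p = 0.171).

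None of the tryptases and chymases was called by edgeR in either comparison of the RLT Vav Txp group. Tpsb2, Tpsab1 and Mcpt4 were found in a single RLT Vav Txp library, the second, and at 0 in the other 3, and Cma1 was at 0 in 2 of 4 libraries. DESeq2 called Tpsb2 and Tpsab1 higher against E10.5-induced ME, and Tpsab1 against P28 WT, on the counts of that 1 library. Markers of several other cell types were also higher in the RLT Vav Txp group than in P28 WT. Summed macrophage markers (7 genes) ran from 562 to 2540 CPM against 57.2 to 89.5 CPM, with none of the 7 at 0 in all libraries of either group, and the eosinophil markers (6 genes) ran from 434 to 1710 CPM against 86.0 to 196 CPM. Neutrophil sums were 2009 to 6488 CPM against 693 to 914 CPM, and erythroid sums 1103 to 1387 CPM against 370.4 to 459 CPM. Stem cell sums (7 genes) were lower, 1352 to 1654 CPM against 1600 to 1909 CPM, with overlap, and B-lymphoid sums (6 genes) were 55.0 to 349 CPM against 229 to 318 CPM, below P28 WT in 3 of the 4 libraries. In E10.5-induced ME the macrophage sums were 41.3 to 65.1 CPM, eosinophil 2.82 to 248 CPM, neutrophil 993 to 1775 CPM, erythroid 375 to 614 CPM, stem cell 1999 to 2408 CPM and B-lymphoid 394 to 589.6 CPM. Their part in the rise of the basophil and mast cell genes was not tested.

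Beyond the 10 members, 44 other genes of the mast cell and basophil programme were followed (IgE receptor signalling, transcription factors, receptors, mediators, cytokines and further proteases), of which 38 had enough counts to be tested. For ME against WT at P0, 0 of the 38 were called by edgeR, beside 0.642% of all genes, and the median log2 fold change was -0.17. At an unadjusted p under 0.05 there were 16, beside 3251 of the 23059 genes tested. DESeq2 called 4, beside 3.56% of genes with an adjusted p, and limma voom 0, beside 0.0781% of all genes. The 4 that did not overlap, all lower in P0 ME, beside 1.56% of all genes, were Tph1, Hpgds, Il4 and Mrgprb2, and they were singled out after their values were seen. Tph1, the serotonin-synthesising enzyme that mast cells carry, was 571, 28.2, 95.2 and 42.0 CPM in P0 WT against 0.0464, 1.13, 20.2 and 0.0494 CPM in P0 ME (log2 fold change -5.09, SE 1.51, adjusted p = 0.134). Il4, the type 2 cytokine, was 4.57 to 12.3 CPM against 0.617 to 2.02 CPM (log2 fold change -2.44, SE 0.62, adjusted p = 0.0664). Mrgprb2, the receptor by which mast cells answer to peptides without IgE, was 80.1, 5.93, 3.23 and 3.51 CPM in P0 WT against 1.83 CPM in P0 ME library 3, with 0 in the other 3. For Tph1 and Mrgprb2, P0 WT 1 and P0 ME 3 were again the highest of their groups.

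At P28, 8 of the 38 programme genes were called in E10.5-induced ME against WT, 6 higher and 2 lower, beside 7.82% and 4.44% of all genes. Gata1 (1.77, SE 0.45, adjusted p = 0.0123) and Gata2 (0.95, SE 0.23, adjusted p = 0.00934), both haematopoietic GATA factors, rose. Summed stem cell markers were also higher, 1999 to 2408 CPM against 1600 to 1909 CPM in WT. Erythroid sums overlapped, at 375 to 614 CPM against 370.4 to 459 CPM. The part of such cells in the rise of Gata1 and Gata2 was not tested. Hpgds, the prostaglandin D2 synthase (-1.66, SE 0.44, adjusted p = 0.0149), and Alox5ap, the 5-lipoxygenase-activating protein (-0.92, SE 0.24, adjusted p = 0.0135), fell. The Gata1 call was lost without P28 WT 1 (adjusted p = 0.0584), the Gata2 call without P28 WT 1 or 2 (0.050 and 0.0501, each past the threshold before rounding) and the Hpgds call without P28 WT 2 or E10.5-induced 1 or 2 (0.0512 to 0.0629). Among the 10 members the 1 call in this comparison was a fall. In P0-induced mice against WT 0 of the 38 were called by edgeR, beside 1.57% of all genes. At an unadjusted p under 0.05 there were 11, beside 4648 of the 23059 genes tested. DESeq2 called 3, beside 12.5% of genes with an adjusted p, and limma voom 11, beside 21.7% of all genes.

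In the RLT Vav Txp group against P28 WT, 6 of the 38 rose and 0 fell, beside 2.64% of all genes called higher and 4.12% called. The largest were Alox5, the leukotriene-forming 5-lipoxygenase (4.66, SE 0.90, adjusted p = 0.00326), Gata1 (2.75, SE 0.46, adjusted p = 0.00058), Hpgds (2.53, SE 0.45, adjusted p = 0.00091) and Fcer1g, the shared signalling chain of Fc receptors (2.48, SE 0.35, adjusted p = 9.92e-05). Of these, the Alox5 call was lost with limma voom (adjusted p = 0.099) and held in all 8 fits that left out a library. Against E10.5-induced ME, 13 of the 38 were called, 8 higher and 5 lower, beside 8.5% and 9.38% of all genes, led by Hpgds (4.19, SE 0.48, adjusted p = 3.01e-06), Ctsg (2.94, SE 0.98, adjusted p = 0.0459), Alox5 (2.58, SE 0.79, adjusted p = 0.0285) and Fcer1g (2.56, SE 0.35, adjusted p = 4.16e-05). The Ctsg call was lost in 7 of 8 fits that left out a library and held only without RLT Vav Txp library 1 (adjusted p 0.0389 to 0.154 over all 8). The Alox5 call was lost in 5 of 8, without E10.5-induced 1, 2, 3 or 4 or RLT Vav Txp 4 (0.0408 to 0.0893 over all 8). Without filtering on low counts both were lost (0.0836 and 0.0677). Fcer1g and Alox5 are also expressed by macrophages and neutrophils, and Ctsg, cathepsin G, by neutrophil precursors.

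Finally, the genes whose levels ran most like those of Hdc and Cpa3 were listed among 11320 genes by the Pearson correlation of log2 CPM over the 24 libraries, which share their ages and tissues, so the value is a description. For Hdc they were Slc31a2 (0.92), Alox5 (0.92), Ecm1 (0.92), Klf2 (0.91) and H1f2 (0.89). Over the 16 P28 libraries alone the correlation was 0.81 for Alox5 and 0.38 for Slc31a2. For Cpa3 they were Il1rl1 (0.87), Klf2 (0.84), Ecm1 (0.83), Slc31a2 (0.83) and Alox5 (0.83). Il1rl1, the receptor for interleukin 33 on mast cells and basophils, had a correlation of 0.88 with Cpa3 over the 8 P0 libraries and 0.82 over the 16 P28 libraries. Each of these sets pools groups that differ in mean Cpa3. It was 881 CPM in P0 WT against 67.0 CPM in P0 ME, and 50.9 CPM in RLT Vav Txp against 7.21 to 12.9 CPM in the other P28 groups. Correlations within an age therefore also carry the group differences. The mean level of Il1rl1 was 137 ± 224 CPM in P0 WT (SD, n = 4), and 24.6 CPM without P0 WT library 1, which held 473 CPM. In P0 ME it was 11.0 ± 11.6 CPM, and the groups overlapped.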

How the data were processed

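Mouse LSK cells were profiled by bulk RNA-seq in 24 libraries, 4 for each of 6 groups named in the labels, and the authors deposited 1 table of read counts per Ensembl gene. Per the submitters' processing notes, STAR 2.7.9a, Subread with featureCounts 2.0.3 and GRCm38 were used. The strand setting and annotation are not given in the sources used here, so a gene and an overlapping antisense gene cannot be told apart. Of 55774 entries, 287 repeats of 168 IDs were dropped, leaving 55487 genes. Gene positions are from GENCODE M21.

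Genes passing filterByExpr (minimum count 10, 23059 genes) received TMM factors and entered the robust quasi-likelihood test of edgeR 4.0.16 (R 4.3.3), 1 mean per group over all 24 libraries and 18 residual degrees of freedom. Calls have a Benjamini-Hochberg adjusted p under 0.05 over all genes tested. Fitted log2 fold changes are given where at least 2 libraries of each group were above 3 counts or the gene was called, and folds against a group at 0 use 3 counts per library. Intervals and this floor cover counting error only, since PCR copies are not separate molecules. Library totals were 31233688 to 89774511 counts, and the biological coefficient of variation was 27.4% to 102% by group.

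The members, the 44 programme genes, the marker lists and the tests were chosen with earlier results of these data known. Programme genes were named by rule, at most 4 called with the largest absolute log2 fold change per comparison, and 5 genes most like Hdc and Cpa3 each. Alternatives were RLE factors, plain totals, no filter, at least 10 counts in at least 12 libraries, DESeq2 1.42.0, limma 3.58.1 voom with quality weights, only the groups compared, the 20 libraries that carry a number (with a replicate block or without one), and each library left out. Leaving out 2 P0 libraries together was chosen after seeing the data. The fit was tested on simulated data. Motifs were searched in Python 3.11.15, shared stretches with BLAST 2.17.0, and plots drawn with matplotlib 3.10.9. The human transgene was not analysed here.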

Additional observations from a re-analysis of the deposited data

Results flagged for a closer look

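Among the 10 members, 49 groups of 4 libraries had more than 3 counts in some library and were checked for a library far from the other 3, and 19 had one. About 1 group in 20 would by chance if values were normal and independent, which these are not: in 6 of the 19 the other 3 libraries were at 0, which fixes the result, and 11 come from P0 WT 1 or P0 ME 3. In each, the gap to the nearest library, as a share of the group's range, was above Dixon's 95% critical value for 4 values. P0 WT library 1 was far above its group for 7 members: Fcer1a (44.9 CPM), Cpa3 (2545 CPM), Tpsb2 (4887 CPM), Tpsab1 (200.004 CPM), Cma1 (2017 CPM), Mcpt4 (23.4 CPM) and Prss34 (55.5 CPM). P0 ME library 3 was far above its group for Tpsb2 (246 CPM), Tpsab1 (12.6 CPM), Cma1 (85.7 CPM) and Mcpt4 (5.21 CPM), the 4 mast cell proteases. RLT Vav Txp library 2 was the 1 library of its group with Tpsb2 (2.66 CPM), Tpsab1 (0.138 CPM) and Mcpt4 (0.716 CPM).

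The other such values were single ones. Cpa3 was low in P28 WT library 3 (2.54 CPM). Fcer1a was found in P28 WT library 4 (0.232 CPM) and was highest in P0-induced library 2 (0.262 CPM). Cma1 was highest in P28 WT library 1 (0.168 CPM), and Prss34 was found only in library 3 of the E10.5-induced mice (0.200 CPM).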

How the results depend on the processing

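Members called changed with the processing as follows, and the cause was not tested. With DESeq2 the count was 1 for ME against WT at P0 and for P0-induced against E10.5-induced ME, 3 for RLT Vav Txp against WT and 1 for the interaction, against 0, 0, 1 and 0 with edgeR. In the same order, DESeq2 called 3.56%, 0.401%, 7.3% and 3.47% of genes with an adjusted p. The edgeR shares of all genes were 0.642%, 0.0477%, 4.12% and 0.72%. For E10.5-induced ME against WT the count of members was 0 without a filter, 0 with limma voom and 2 with only the groups compared, against 1. The shares of all genes tested were 4.28%, 28.2% and 34%, against 12.3%. RLT Vav Txp against WT gave 3 with limma voom and 3 with only the groups compared, beside 6.3% and 6.22% of all genes tested. Leaving out 1 library gave 0 to 3 for ME against WT at P0, 0 to 1 for E10.5-induced ME against WT, 1 for RLT Vav Txp against WT and 3 to 4 for RLT Vav Txp against E10.5-induced ME, which other settings put at 3 to 6. In these fits the shares of all genes tested were 0.432% to 2.38%, 3.7% to 11.3%, 2.63% to 3.55% and 8.51% to 21.5%, in that order. The other settings gave 7.02% to 35.2% for RLT Vav Txp against E10.5-induced ME. Without P0 WT 1 and P0 ME 3 together the P0 count was 3, beside 1.05% of all genes tested.

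The replicate numbers do not pair the libraries over all groups: no pair of groups had all 4 correlations of same-numbered libraries above 0.1. Between P0 WT and P0 ME the deviations of same-numbered libraries correlated from 0.0531 to 0.660, and 3 of 4 correlated best with their own number. Whether P0 libraries of the same number share a preparation was not tested. With the replicate block on the 20 numbered libraries, 1 member (Cma1) was called for ME against WT at P0 and 0 for E10.5-induced ME against WT, where Prss34 had an adjusted p of 0.0716 by edgeR. The shares of all genes called with the block were 0.778% and 14%. RLT Vav Txp libraries carry codes and no replicate number, so no paired fit was made there.

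Directions reversed only for log2 fold changes that were not called. Mcpt8 in P0-induced against E10.5-induced ME (0.00) was 0.02 with RLE factors, 0.11 with plain totals, 0.05 without a filter, 0.03 with the stricter filter, 0.02 with DESeq2, 0.06 with only the groups compared and -0.59 to 0.30 leaving out 1 library. Prss34 in P0-induced mice against WT (-0.21) was 0.11 with limma voom and -0.79 to 0.37 leaving out 1 library, and the Mcpt8 interaction (-0.95) was 0.17 with limma voom. Ms4a2 ran from -1.13 to 0.75 at P0, from -0.14 to 2.32 in the interaction and from -0.20 to 0.81 in P0-induced against E10.5-induced ME leaving out 1 library, and without both P0 libraries numbered 1 it was 1.17 at P0 and -0.53 in the interaction. Mcpt8 in P28 WT against P0 WT (-0.37, no test) ran from -1.03 to 0.04 leaving out 1 library, with 0.04 without P28 WT 3. The scaling moved the median of all genes in E10.5-induced ME against WT from -0.10 to -0.18 with RLE factors and -0.23 with plain totals. Of the 38 programme genes, 8 were called there and 2 to 8 leaving out 1 library, 14 with limma voom and 16 with only the groups compared. The shares of all genes tested moved too, and were 12.3%, 3.7% to 11.3%, 28.2% and 34%, in that order.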
